A study of Mus musculus with 8 samples.

Results

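The data described are those of *Tmem163*, which encodes a zinc efflux protein of vesicles and the plasma membrane, and of 8 genes of the *Slc30a* family, which encode the zinc transporters of the ZnT group. They were found by gene symbol in the platform annotation, and each of the 9 genes had 1 transcript cluster, the set of probes along a gene that is summarised into a single value, among 23410 transcript clusters with a gene symbol and 35556 in all. *Tmem163* was chosen by its log2 signal, which differed between *Sox3* null and control arrays, so its genotype difference is given as a description with no test. The *Slc30a* genes were chosen as relatives by function, with earlier results of these data known. Gene expression was measured at Day 4 of neural differentiation of mouse ES cells in N2B27, a serum-free medium. Of 8 Affymetrix mouse gene arrays, 4 were hybridised with RNA of *Sox3* null cells, whose only *Sox3* exon was replaced by GFP, and 4 with RNA of control cells, which have a conditional *Sox3* allele. The control cells are called wild type in the methods and Sox3 positive in the labels. Each genotype had 2 arrays in batch 2 and 2 in batch 1, the batches being 2 series of differentiation. Both genotypes were derived from R1 mouse ES cells, each is a line of its own, and line and genotype cannot be told apart. The unit is the log2 signal of a transcript cluster, as normalized by the authors.

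Zinc is carried out of the cytosol, either across the plasma membrane or into vesicles and organelles, by the ZnT proteins, and into the cytosol by the ZIP proteins of the *Slc39a* genes. Metallothioneins bind it in the cytosol. Where free zinc is high, the zinc-sensing transcription factor MTF1 binds metal response elements before genes such as *Mt1*, *Mt2* and *Slc30a1* and raises their transcription. In the brain ZnT3, the product of *Slc30a3*, fills synaptic vesicles of glutamatergic neurons with zinc, and TMEM163 was first described as a zinc-binding protein of synaptic vesicles.

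*Tmem163*, *Slc30a1* and *Slc30a3* are the members that passed the test as lower in batch 2 than in batch 1, and the 250 bases before their start sites are shown for this reason, as given by RefSeq for build GRCm38.p6. The window of *Tmem163* is chr1:127678022-127678271 on the minus strand, that of *Slc30a1* is chr1:191906531-191906780 on the plus strand, and that of *Slc30a3* is chr5:31108245-31108494 on the minus strand. Capitals mark the core of a metal response element, TGCACNC or TGCGCNC, or a SOX core, ACAATG or ACAAAG, on either strand, and all are printed 5′ to 3′ in the direction of the gene.
Tmem163: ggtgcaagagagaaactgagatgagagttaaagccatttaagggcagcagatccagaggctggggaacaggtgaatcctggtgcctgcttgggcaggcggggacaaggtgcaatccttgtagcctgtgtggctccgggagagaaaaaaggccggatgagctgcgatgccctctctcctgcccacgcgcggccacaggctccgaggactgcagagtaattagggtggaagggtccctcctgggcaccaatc
Slc30a1: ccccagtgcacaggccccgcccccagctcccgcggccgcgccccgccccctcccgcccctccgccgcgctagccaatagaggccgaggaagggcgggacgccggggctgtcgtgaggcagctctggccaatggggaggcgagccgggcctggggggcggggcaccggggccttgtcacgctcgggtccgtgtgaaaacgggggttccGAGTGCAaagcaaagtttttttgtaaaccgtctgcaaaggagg
Slc30a3: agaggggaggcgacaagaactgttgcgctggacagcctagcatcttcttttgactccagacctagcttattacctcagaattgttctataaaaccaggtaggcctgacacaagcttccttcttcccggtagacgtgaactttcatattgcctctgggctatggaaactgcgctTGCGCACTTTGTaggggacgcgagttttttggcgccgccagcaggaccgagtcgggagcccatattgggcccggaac
The single match of *Slc30a1* is a metal response element core on the opposite strand, 43 to 37 bases before the start. In *Slc30a3* such a core lies 77 to 71 bases before the start and overlaps by 1 base a SOX core on the opposite strand, 71 to 66 bases before it. *Tmem163* had no match to either in these letters. RefSeq gave 10 such windows for the 9 genes, with a second start for *Slc30a3* that held no match. A metal response element core was found for 5 of the 9 genes, *Slc30a1*, *Slc30a3*, *Slc30a4*, *Slc30a5* and *Slc30a10*. It was in 5 of the 10 windows, against 21.4% of 32851 windows of the same length. Of these genes, *Slc30a1* and *Slc30a3* passed as lower in batch 2, while *Slc30a4*, *Slc30a5* and *Slc30a10* did not pass for batch. A SOX core was found for 1 of the 9 genes, in 1 of the 10 windows, against 25.2% of all windows. A match in these letters is a description of the sequence and not a bound site.

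*Tmem163* had a log2 signal of 8.24 and 8.16 in batch 2 and 8.87 and 8.96 in batch 1 of *Sox3* null cells, against 8.69 and 8.71 in batch 2 and 9.46 and 9.55 in batch 1 of control cells. Within each batch both null arrays lay below both control arrays. Over all 8 arrays the genotypes overlapped, because the null arrays of batch 1 were above the control arrays of batch 2, by 0.22 between the means. The mean was 8.56 ± 0.42 in *Sox3* null cells and 9.10 ± 0.47 in control cells (SD, n = 4 each). With batch taken into account the log2 difference of null minus control was -0.54 with a 95% interval of -0.66 to -0.43, that is 1.46-fold lower in *Sox3* null cells. It was -0.50 in batch 2 and -0.59 in batch 1. Genotype held 33.4% of the sum of squares of *Tmem163* over the arrays, batch held 65.8%, and 0.837% was left. A transcript cluster passed where limma gave an adjusted p of at most 0.05 over all 23410. With a change of at least 1.4-fold as well, 0.431% of them passed, and 0.111% with a fall in *Sox3* null cells. These shares are background only, since the same contrast chose the gene. In bulk cultures, fewer cells that express a gene and less RNA per cell cannot be told apart.

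**Figure D1:**
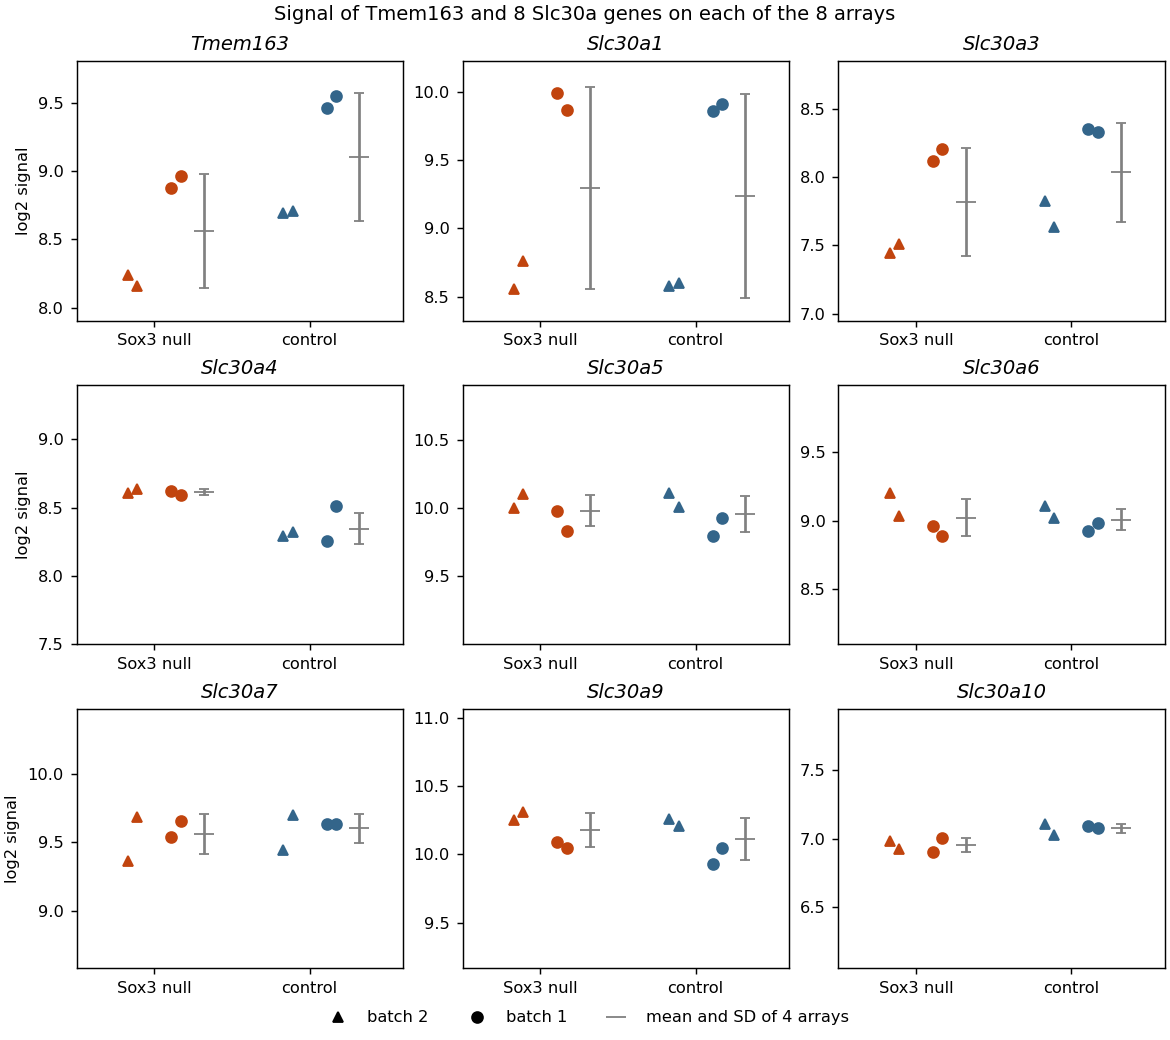
Log2 signal (vertical axis) of *Tmem163* and 8 *Slc30a* genes on each array, with *Sox3* null arrays left of control arrays in each panel. Triangles are batch 2, circles are batch 1, and the bar is the mean and SD of the 4 arrays of a genotype. All panels span the same range of log2 signal. *Tmem163*, *Slc30a1* and *Slc30a3* sit lower in batch 2 in both genotypes, and *Slc30a4* sits higher on all null arrays.

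*Sox3* itself, the targeted gene, averaged 8.50 ± 0.14 in *Sox3* null cells and 9.81 ± 0.09 in control cells (SD, n = 4 each) and lay below all control arrays on all null arrays. The 4 markers of neural progenitors, *Sox1*, *Sox2*, *Pax6* and *Nes*, were all above the median signal, and their summed signal was 13.73 to 13.78 on the log2 scale in *Sox3* null cells and 13.46 to 13.58 in control cells. For *Tubb3*, *Dcx* and *Map2*, markers of neurons, the sum was 10.56 to 11.03 in *Sox3* null cells and 10.33 to 10.52 in control cells. *Pou5f1*, *Nanog* and *Zfp42*, markers of pluripotent cells, summed to 11.33 to 11.68 in *Sox3* null cells and 11.67 to 11.90 in control cells. *Nes* of the 4 progenitor markers and *Map2* of the 3 neuronal markers were higher in *Sox3* null cells, *Nanog* of the 3 pluripotency markers was lower, and the others did not pass. Of all transcript clusters, 1.15% passed as higher and 0.393% as lower in *Sox3* null cells. The part of these cell types in the genotype differences below was not tested.

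For the 8 *Slc30a* genes the comparison asks whether zinc efflux genes other than *Tmem163* differed between the genotypes. None of the 8 passed the test over all transcript clusters, where 1.55% passed (1.15% higher and 0.393% lower in *Sox3* null cells), and 3 of the 8 had an unadjusted p under 0.05 from limma, against 13.1% of all. The plain linear model also gave 0 of 8. The median log2 difference of the 8 was 0.02, and that of all transcript clusters was 0.00 when rounded. All 8 intervals lay within 1.4-fold in either direction, as did those of 22971 of all 23410 transcript clusters.

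*Slc30a1* encodes ZnT1, which exports zinc across the plasma membrane. Its log2 signal was 8.56 and 8.76 in batch 2 and 9.99 and 9.87 in batch 1 of *Sox3* null cells, against 8.58 and 8.60 in batch 2 and 9.86 and 9.91 in batch 1 of control cells. The genotypes overlapped in both batches, and the difference was 0.06 (95% interval -0.07 to 0.19, adjusted p = 0.746 from limma).

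*Slc30a3*, the gene of the synaptic vesicle transporter ZnT3, had 7.44 and 7.51 in batch 2 and 8.11 and 8.20 in batch 1 of *Sox3* null cells, against 7.82 and 7.63 in batch 2 and 8.35 and 8.33 in batch 1 of control cells. Both null arrays were below both control arrays in each batch, but the log2 difference of -0.22 (95% interval -0.34 to -0.09) did not pass (adjusted p = 0.104 from limma). *Slc30a4* encodes ZnT4 of endosomal vesicles, which moves zinc into milk in the mouse mammary gland. Its log2 signal was 8.61 and 8.64 in batch 2 and 8.62 and 8.59 in batch 1 of *Sox3* null cells, against 8.29 and 8.32 in batch 2 and 8.26 and 8.51 in batch 1 of control cells. All 4 null arrays were above all 4 control arrays, with a log2 difference of 0.27 (95% interval 0.14 to 0.40) and an adjusted p of 0.0597 from limma. *Slc30a4* passed when only transcript clusters at or above the median signal were tested (adjusted p = 0.0363 from limma), where 3.04% of all passed. It also passed without control replicate 2, its highest control array (adjusted p = 0.0214). Its adjusted p ran up to 0.203 over the other fits that left out an array.

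*Slc30a10* encodes a transporter that in humans exports manganese. It was the only member with a mean signal under the median of all transcript clusters, 7.67, and had 6.98 and 6.93 in batch 2 and 6.90 and 7.01 in batch 1 of *Sox3* null cells, against 7.11 and 7.03 in batch 2 and 7.09 and 7.08 in batch 1 of control cells. All 4 null arrays were below all 4 control arrays, by a log2 difference of -0.12 (95% interval -0.23 to -0.01) that did not pass (adjusted p = 0.322). The genotypes were apart over all arrays for *Slc30a4* and *Slc30a10*, 2 of the 8 genes, against 4.6% of all transcript clusters. They were apart on the same side in both batches for 3 of the 8, with *Slc30a3* added, against 12.1%.

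The transporters of the secretory pathway and of mitochondria differed little between the genotypes. ZnT5 and ZnT6, from *Slc30a5* and *Slc30a6*, work as a pair in the early secretory pathway, and ZnT7, from *Slc30a7*, in the Golgi. *Slc30a5* had a log2 difference of 0.02 (95% interval -0.11 to 0.15), *Slc30a6* had 0.01 (95% interval -0.11 to 0.14), and *Slc30a7* had -0.04 (95% interval -0.22 to 0.13). Their sign turned under some settings. *Slc30a9*, whose product moves zinc out of mitochondria in human cells and in worms, had 0.06 (95% interval -0.05 to 0.17). The adjusted p of these 4 genes ran from 0.657 for *Slc30a9* to 0.957 for *Slc30a6*, and null and control arrays overlapped for each.

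**Figure D2:**
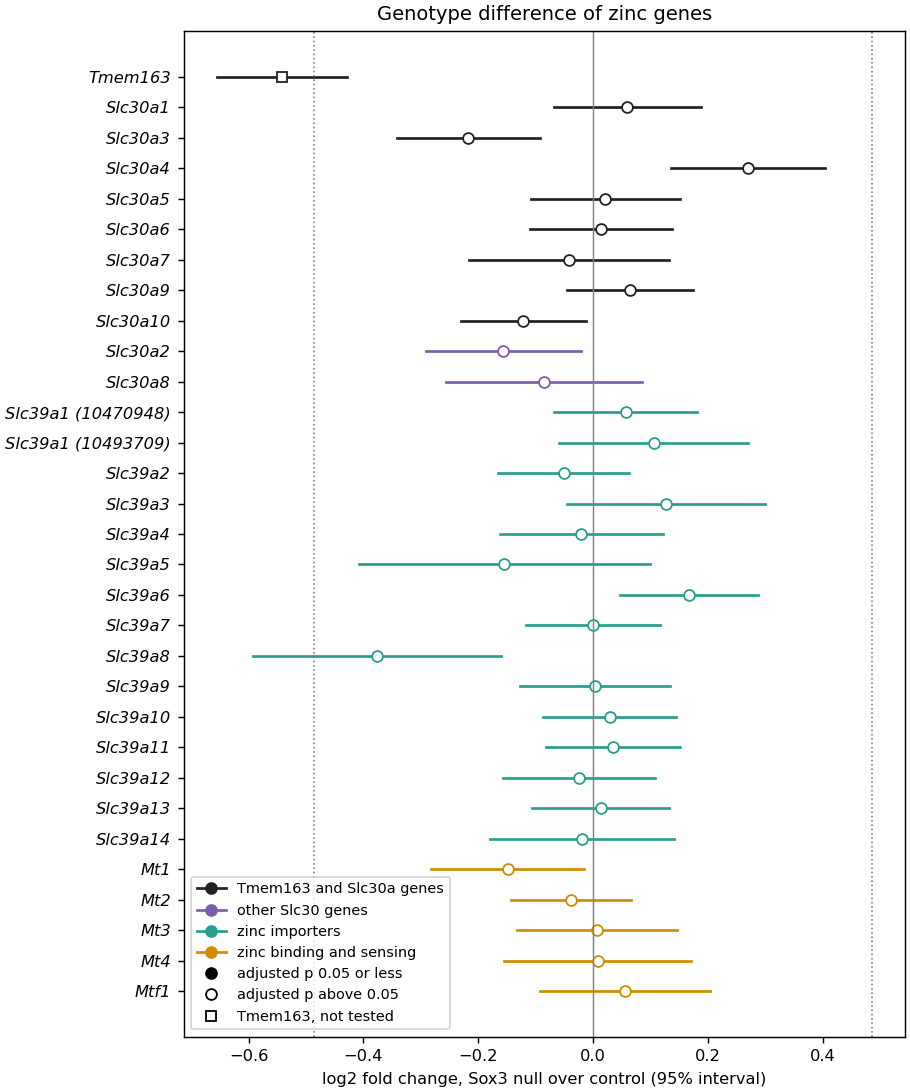
Log2 difference of *Sox3* null minus control (horizontal axis) with its 95% interval for the transcript clusters of *Tmem163*, the *Slc30a* genes, the zinc importers and the zinc binding and sensing genes, from 4 arrays of each genotype. Dotted lines mark 1.4-fold, the square is *Tmem163*, which was not tested, and no circle is filled, since none had an adjusted p of 0.05 or less. *Tmem163* lies at -0.54, and the *Slc30a* genes of the set lie between -0.22 and 0.27.

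Between the batches, a contrast that shares only the residual spread with the one that chose *Tmem163* and in which each batch holds both genotypes equally, 4 of the 9 genes passed. *Slc30a1*, *Tmem163* and *Slc30a3* were lower in batch 2 and *Slc30a9* was higher, while of all transcript clusters 9.35% were lower and 10.9% higher, 20.2% in all. The cultures of a batch are 1 series of differentiation, so these p-values measure the spread between arrays and not between series. *Slc30a1* averaged 8.62 ± 0.09 in batch 2 and 9.91 ± 0.06 in batch 1 (SD, n = 4 each). This is a log2 difference of -1.28 (95% interval -1.41 to -1.15, adjusted p = 1.65e-06 from limma), or 2.43-fold lower in batch 2. Counting *Slc30a1* itself, 5 transcript clusters of all 23410 fell by at least as much. *Tmem163* averaged 8.45 ± 0.29 in batch 2 and 9.21 ± 0.34 in batch 1, a log2 difference of -0.76 (95% interval -0.87 to -0.65, adjusted p = 1.95e-05), or 1.69-fold lower. With *Tmem163* itself counted, 84 transcript clusters (0.359%) fell by at least as much. *Slc30a3* averaged 7.60 ± 0.17 in batch 2 and 8.25 ± 0.11 in batch 1, a log2 difference of -0.65 (95% interval -0.77 to -0.52, adjusted p = 7.15e-05), or 1.57-fold lower. For all 3 genes the 4 arrays of batch 2 lay below the 4 arrays of batch 1. A fall of 1.4-fold or more with an adjusted p of 0.05 or less was seen in 1.47% of all transcript clusters.

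*Slc30a9* was the member that was higher in batch 2, with 10.25 and 10.31 in *Sox3* null cells and 10.26 and 10.21 in control cells of batch 2, against 10.09 and 10.05 in *Sox3* null cells and 9.93 and 10.04 in control cells of batch 1. Its log2 difference was 0.23 (95% interval 0.12 to 0.34, adjusted p = 0.0081 from limma), or 1.17-fold. *Slc30a5* had 0.17 (adjusted p = 0.0656) and *Slc30a6* had 0.16 (adjusted p = 0.0782), and neither passed, although the batches were apart on all arrays for both. Both passed when only transcript clusters at or above the median signal were tested (adjusted p = 0.0354 for *Slc30a5* and 0.0418 for *Slc30a6*), where 40.2% of all passed, and *Slc30a5* also passed without *Sox3* null replicate 1 (adjusted p = 0.0498). *Slc30a4* had -0.03 (95% interval -0.17 to 0.10), *Slc30a7* had -0.07 (95% interval -0.24 to 0.11) and *Slc30a10* had -0.01 (95% interval -0.12 to 0.10), with overlapping batches. The batches were apart for 6 of the 9 genes, against 21.0% of all transcript clusters, and batch 2 was the lower for 3 of the 9, against 9.34%.

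Markers of fibroblasts, which the methods give as the feeder layer of the ES cells while the labels give gelatine, were read for batch as well. Of *Col1a1*, *Col1a2* and *Col3a1*, 2 passed as lower in batch 2, where 9.35% of all transcript clusters passed as lower and 10.9% as higher. *Col1a1* had a log2 difference of -0.31 (adjusted p = 0.0048 from limma) and *Col1a2* had -0.50 (adjusted p = 0.003), and *Col3a1*, with -0.07, did not pass. Their summed signal was 9.14 to 9.48 on the log2 scale in batch 2 and 9.54 to 9.79 in batch 1. Of the other markers, *Nes* was lower in batch 2 (log2 difference -0.31, adjusted p = 0.0148), 1 of the 4 of neural progenitors, *Dcx* was higher (0.28, adjusted p = 0.0438), 1 of the 3 of neurons, and none of the 3 of pluripotent cells passed. The summed signal was 13.46 to 13.75 in batch 2 and 13.57 to 13.78 in batch 1 for progenitors, 10.49 to 11.03 in batch 2 and 10.33 to 10.70 in batch 1 for neurons, and 11.62 to 11.90 in batch 2 and 11.33 to 11.89 in batch 1 for pluripotent cells. The part of these cell types in the batch differences of the zinc genes was not tested.

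**Figure D3:**
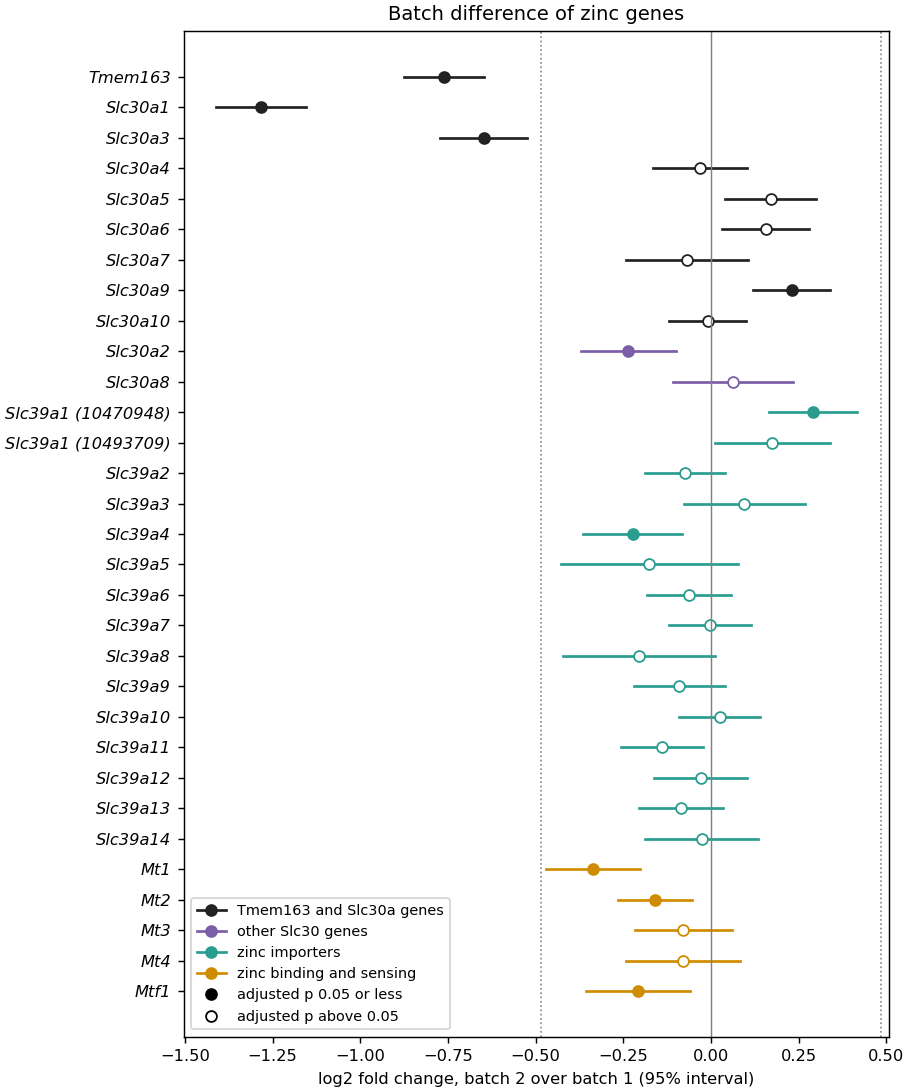
Log2 difference of batch 2 minus batch 1 (horizontal axis) with its 95% interval for the same transcript clusters, from 4 arrays of each batch. Filled circles had an adjusted p of 0.05 or less and dotted lines mark 1.4-fold. *Slc30a1* at -1.28, *Tmem163* at -0.76 and *Slc30a3* at -0.65 lie beyond the dotted line, and all other genes shown lie inside it.

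For none of the 8 *Slc30a* genes did a change of the genotype difference between the batches pass the test. For *Tmem163* the term of genotype by batch was 0.09 (95% interval -0.15 to 0.33), given as a description, since the fit of genotype and batch that chose the gene favours a small term. For *Slc30a1*, with the largest batch difference, it was 0.02 (95% interval -0.25 to 0.30). None of all 23410 transcript clusters passed this test (0.0%), and 3.05% had an unadjusted p under 0.05, as did 0 of the 8, whose smallest was 0.472. The intervals are wide, since each of the 4 sets of genotype and batch holds 2 arrays. The order of *Tmem163* over these sets, from the lowest mean, was null in batch 2 (8.20), control in batch 2 (8.70), null in batch 1 (8.92) and control in batch 1 (9.50), and the arrays of neighbours in this order did not overlap. For *Slc30a1* the order from the highest mean was null in batch 1 (9.93), control in batch 1 (9.88), null in batch 2 (8.66) and control in batch 2 (8.59), and within a batch the genotypes overlapped.

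The other genes of zinc handling were read from 3 lists. Of the other *Slc30a* genes, *Slc30a2*, which fills vesicles of the mammary gland, and *Slc30a8*, which fills insulin granules, neither passed for genotype. *Slc30a2* had a log2 difference of -0.16 (95% interval -0.29 to -0.02, adjusted p = 0.30) and *Slc30a8* had -0.09 (95% interval -0.26 to 0.09). None of the 15 transcript clusters of 14 zinc importers passed either, and their median was 0.00. Of these, 2 had an unadjusted p under 0.05 from limma, against 13.1% of all transcript clusters. *Slc39a8*, an importer of zinc and manganese, had the largest difference of the lists, -0.38 (95% interval -0.59 to -0.16, adjusted p = 0.104), with -0.15 in batch 2 and -0.61 in batch 1. Its genotype by batch term was 0.46 (95% interval 0.14 to 0.78, unadjusted p = 0.0101), which did not pass over all genes, and without control replicate 4 its genotype difference did pass (-0.48, adjusted p = 0.0159). The plasma membrane importers *Slc39a6* and *Slc39a3* had 0.17 (95% interval 0.05 to 0.29, adjusted p = 0.205) and 0.13 (95% interval -0.05 to 0.30, adjusted p = 0.55). The genotypes were apart over all arrays for 1 of the 15, *Slc39a6*, with the null arrays above, against 4.6% of all transcript clusters.

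Of the 5 genes of zinc binding and sensing none passed for genotype. An unadjusted p under 0.05 from limma was seen for 1, *Mt1*, against 13.1% of all transcript clusters. *Mt1* had a log2 signal of 12.18 and 12.08 in batch 2 and 12.35 and 12.36 in batch 1 of *Sox3* null cells, against 12.21 and 12.13 in batch 2 and 12.66 and 12.57 in batch 1 of control cells. Its genotype difference was -0.15 (95% interval -0.28 to -0.02, adjusted p = 0.32 from limma). *Mt2* had -0.04, *Mt3* and *Mt4* had 0.01 each and *Mtf1* had 0.06, and the signs of *Mt3*, *Mt4* and *Mtf1* turned under some settings. Of the 22 transcript clusters of the 3 lists, 21 had an interval within 1.4-fold, *Slc39a8* being the exception. Of all 23410 transcript clusters, 22971 had such an interval.

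In the batch contrast 3 of these 5 genes were lower in batch 2, against 9.35% of all transcript clusters. *Mt1* had -0.34 (95% interval -0.47 to -0.20, adjusted p = 0.00303 from limma), and all arrays of batch 2 lay below those of batch 1. *Mt2* had -0.16 (adjusted p = 0.0364) and *Mtf1* had -0.21 (adjusted p = 0.0497), both near the threshold. *Mt2* passed in 1 of 8 fits to 7 arrays (without *Sox3* null replicate 2), with an adjusted p of up to 0.119, and *Mtf1* in 2 (without *Sox3* null replicate 2 or 4), with up to 0.15. A metal response element core was found in the windows of *Mt1*, *Mt2* and *Mt4*, 3 of the 5 genes, against 21.4% of all windows. *Mt4* did not pass for batch (-0.08, adjusted p = 0.53 from limma), and the window of *Mtf1*, which passed, held no such core. *Slc30a2*, 1 of the 2 other *Slc30a* genes, was lower in batch 2, with -0.24 (adjusted p = 0.0198). The intestinal importer *Slc39a4* was lower as well, with -0.22 (adjusted p = 0.031). *Slc30a2* did not pass without *Sox3* null replicate 2 or 3 or control replicate 1 or 3 (up to 0.0696), and *Slc39a4* without *Sox3* null replicate 1 or control replicate 1, 2 or 3 (up to 0.0997). One of the 2 transcript clusters of *Slc39a1*, an importer of the plasma membrane, was higher by 0.29 (adjusted p = 0.00472) and the other, with 0.17, did not pass. *Slc39a1* and *Slc39a4* were chosen for these batch values after they were seen. Of the 15 transcript clusters of the importers, 13 did not pass for batch, 1 passed as lower and 1 as higher. Of all transcript clusters, 9.35% passed as lower and 10.9% as higher.

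The genes whose pattern over the 8 arrays was most like that of *Tmem163* were found by the root mean square difference of log2 signals, each centred on its own mean. *Fezf2*, a transcription factor of the early forebrain, was nearest at 0.080, followed by *St14*, a membrane serine protease, at 0.116, the semaphorin gene *Sema4f* at 0.129, the tight junction gene *Cldn6* at 0.146 and the semaphorin gene *Sema3e* at 0.149. A gene with no variation would be at 0.469. All 5 had a lower mean in *Sox3* null cells, with log2 differences of -0.33 (*St14*) to -0.64 (*Fezf2*), and a lower mean in batch 2, with -0.62 (*Sema3e*) to -0.98 (*Cldn6*), as likeness to *Tmem163* requires. *Fezf2* stayed nearest when the arrays were quantile normalized again and when each array was left out, and 3 or 4 of the 5 genes were among the nearest 5 in each of these settings. Among the *Slc30a* genes *Slc30a3* came nearest, at 0.190, with 15 transcript clusters nearer, *Tmem163* itself counted. *Slc30a1*, which shares the batch difference but not the genotype difference, was at 0.409. The 8 arrays share 2 batches and 2 genotypes, so that the measure rests on few independent differences and carries no test.

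**Figure D4:**
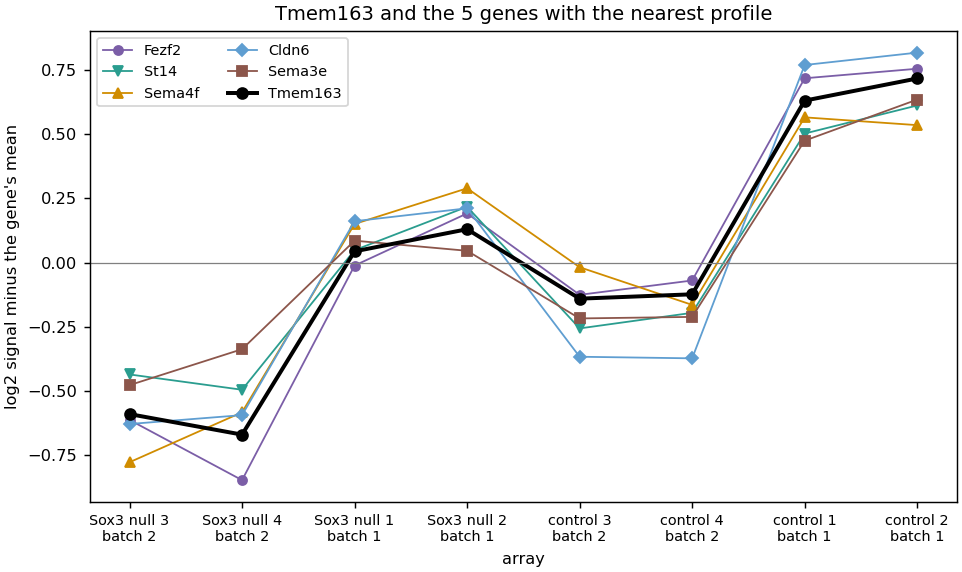
Log2 signal minus the mean of the gene over 8 arrays (vertical axis) for *Tmem163*, in black, and the 5 genes with the nearest pattern, on each array (horizontal axis), with *Sox3* null arrays left of control arrays and batch 2 left of batch 1. Each line is a gene. All 6 genes are lowest on the null arrays of batch 2 and highest on the control arrays of batch 1.

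*Tmem163* lies on chromosome 1, and the genes beside it were read for the same difference. A neighbour with several transcript clusters was read from the brightest only. Of the 10 nearest measured genes on each side, none passed from limma in either direction, against 1.55% of all transcript clusters. An unadjusted p under 0.05 from limma was seen for 3 of the 20 (*Slc35f5*, *Nckap5* and *Ubxn4*, all above 0), against 13.1% of all. With the plain linear model also 0 passed. Their log2 differences ran from -0.09 to 0.12 with a median of 0.04. All 20 intervals lay within 1.4-fold, as did those of 22971 of all 23410 transcript clusters. *Mgat5*, a glycosyltransferase gene and the nearest on one side, had 0.10 (95% interval -0.05 to 0.24), and *Acmsd*, a gene of tryptophan breakdown and the nearest on the other, had -0.04 (95% interval -0.16 to 0.09). Between the batches 1 of the 20 passed, against 20.2% of all transcript clusters. It was *Lypd1*, with -0.24 (adjusted p = 0.0173 from limma), beside -0.76 for *Tmem163*. *Slc35f5*, *Nckap5*, *Ubxn4* and *Lypd1* were named after their values were seen.

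**Figure D5:**
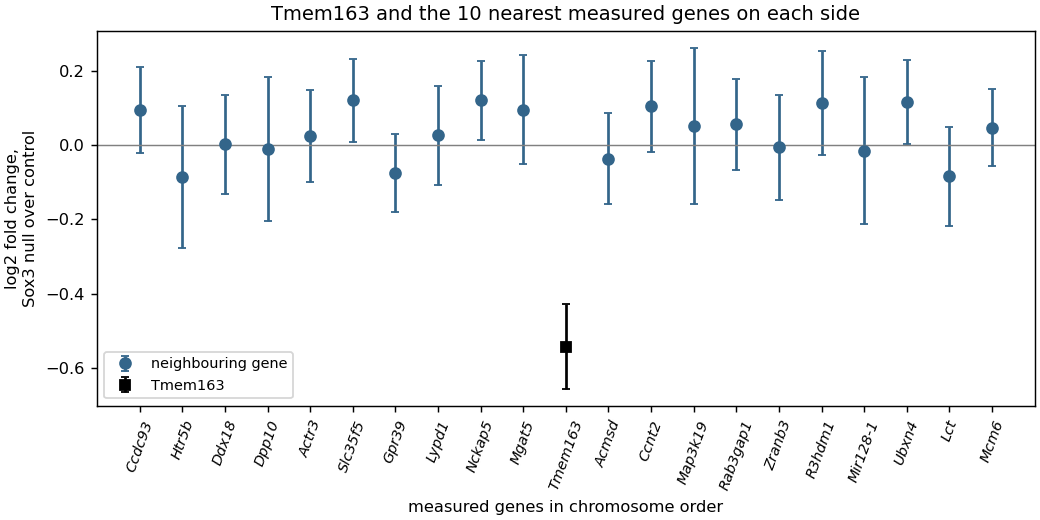
Log2 difference of *Sox3* null minus control with its 95% interval (vertical axis) for *Tmem163*, the square, and the 10 nearest measured genes on each side, in chromosome order with no distances (horizontal axis), from 4 arrays of each genotype. The 20 neighbours lie between -0.09 and 0.12 and *Tmem163* at -0.54.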

How the data were processed

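RNA of 8 Day 4 cultures was hybridised to Affymetrix Mouse Gene 1.0 ST arrays. The deposited values are log2 signals per transcript cluster, normalized and summarised by the authors. Partek is the only tool in the submitters' processing notes. Normalization, summary method and genome build are not stated in the labels or the methods. Of 35556 transcript clusters, 21789 had 1 symbol in the platform annotation, 1621 had several and 12146 were unnamed here. Of those with 1 symbol, 21698 matched the gene table of GRCm38.p6, which also gave the gene order.

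After the two-way ANOVA of the methods, genotype and batch were fitted together by limma 3.58.1 (R 4.3.3) to the 23410 transcript clusters with a symbol, with Benjamini-Hochberg adjustment over all of them. Every p-value given comes from limma, except where it is said to be from the plain linear model. The genotype by batch term was fitted apart. The median SD left by the fit was 0.0869 on the log2 scale, and the number of arrays limits the precision. The labels call the samples replicates but name no separate animals or donors, so p-values measure the spread between these cultures.

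The rule for named genes takes the 9 members, genes of each zinc list that passed for genotype and otherwise up to 3 with the smallest p, the metallothioneins and *Mtf1*, the genes next to *Tmem163*, the 5 of nearest pattern and *Sox3*. Members and lists were chosen with earlier results of these data known. Tested on simulated arrays of 23410 transcript clusters, the genotype test recovered 86% of 100 changed by 0.5 on the log2 scale and 100% of 100 changed by 1. The batch test recovered 83% and 99%. Of the calls, 3.1% for genotype and 6.2% for batch were unchanged transcript clusters. The simulated noise was independent between arrays, and only the transcript clusters changed for batch held a batch difference. These shares may therefore not carry over to the real arrays. Alternatives were other sets of transcript clusters, renormalization, other variance estimates and treatments of batch, the plain linear model (each gene's own variance), fits to 1 batch and fits without 1 array. Other assays of the study were not analysed here.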

Additional observations from a re-analysis of the deposited data

Results flagged for a closer look

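An array far from the other 3 of its genotype was found in 2 of 64 groups of 4 arrays. The groups were formed from the zinc genes and *Sox3* in each genotype, and chance flags about 1 in 20 where all 4 arrays are alike. *Mt4* was highest in control replicate 1, at a log2 signal of 6.28, and its gap to the next array took a share of 0.848 of the range of the group. *Slc39a9*, a zinc importer gene, was lowest in *Sox3* null replicate 3, at 9.65, with a share of 0.851. None of the 9 genes of *Tmem163* and the *Slc30a* set had such an array in either genotype. Each group pools both batches, so where a gene differs between batches the rule can hardly flag an array.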

How the results depend on the processing

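The genotype difference of *Tmem163* ran from -0.50 to -0.59 over all alternatives and from -0.57 to -0.52 when 1 array was left out. Since genotype and batch are balanced, only renormalization, weights on arrays, single batches and left-out arrays could move it. The count of *Slc30a* genes that passed for genotype was 0. It was 1 (*Slc30a4*) among transcript clusters at or above the median signal, where 3.04% passed, and 0 to 1 when 1 array was left out. For the zinc lists it was 0, and 0 to 1 when 1 array was left out. For genes beside *Tmem163* and for the genotype by batch term it was 0 throughout. Between batches 4 of the 9 genes passed, with 4 to 5 when 1 array was left out, and *Tmem163*, *Slc30a1*, *Slc30a3* and *Slc30a9* passed in every such fit.

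Signs turned only for small differences, and the cause was not tested. The genotype difference of *Slc30a5* was -0.0029 in batch 2 alone, *Slc30a6* had -0.016 with renormalized arrays and -0.030 in batch 1 alone, and *Mt3* had -0.027 and -0.025 in the same settings. In batch 1 alone *Mt4* had -0.040 and *Mtf1* had -0.017. The batch difference of *Slc30a10* was 0.071 with renormalized arrays. With 1 array left out, the genotype difference ran from -0.013 to 0.047 for *Slc30a5*, -0.028 to 0.038 for *Slc30a6*, -0.11 to 0.024 for *Slc30a7*, -0.043 to 0.049 for *Mt3*, -0.046 to 0.080 for *Mt4* and -0.0020 to 0.10 for *Mtf1*. The batch difference ran from -0.072 to 0.028 for *Slc30a4*, -0.033 to 0.010 for *Slc30a10* and -0.020 to 0.13 for *Slc30a8*. *Slc30a2*, *Mt2*, *Mtf1* and *Slc39a4* did not pass for batch when unnamed transcript clusters were tested too (adjusted p = 0.053 to 0.105 from limma). With renormalized arrays *Slc30a2* (-0.16, adjusted p = 0.0806), *Mtf1* (0.0524) and *Slc39a4* (0.133) did not pass for batch, nor did they with the plain linear model (adjusted p = 0.0771 for *Slc30a2*, 0.146 for *Mtf1* and 0.108 for *Slc39a4*). The likeness of *Sema3e* to *Tmem163* moved to 0.085 without *Sox3* null replicate 4.

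The number of all transcript clusters that passed for genotype, 362, was 93 with unnamed ones included, 47 with the plain linear model, 37 with no batch term, 18 in batch 1 alone, 23 in batch 2 alone and 182 to 321 with 1 array left out. For batch it was 4736, and 2787 with the plain linear model. Replicate numbers are shared by genotypes only within a batch. The deviations of same-numbered arrays from the means of genotype and batch correlated at -0.32 in batch 1 and 0.30 in batch 2. Each genotype has 2 arrays in a batch, so these values cannot decide whether the numbers pair samples, and the main fit treats none as paired. With the replicate number as a block, 353 transcript clusters passed for genotype, none of the *Slc30a* genes or zinc lists among them. The difference of *Tmem163* stayed at -0.54, which the balanced design fixes in advance.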
